A study of Homo sapiens with 282 samples.

Results

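Monastrol and vincristine both stop dividing cells in mitosis, but they reach the spindle through different proteins, and their transcript profiles after 6 h were set directly against each other in OCI-LY3, an established human line of diffuse large B cell lymphoma. The comparison rests on 6 of the 282 arrays of the series, chosen by their titles: 3 arrays of cells given monastrol at 100 uM and 3 arrays of cells given vincristine at 0.01 uM. The doses of the pair differ and only the time is matched, so the comparison is between these treatments as given, not between equal doses. Other arrays of the same time served as context: 3 with monastrol at 50 uM, 3 with vincristine at 0.005 uM and 8 with the vehicle DMSO at 1%. Cells were seeded in 96-well plates in medium with serum and RNA was taken per well, and nothing in the labels states whether wells of a group were started from different cultures. The p-values rest on the spread between wells of a group, pooled over all groups in the fit rather than taken from the compared wells alone. That spread may be technical. The labels record 1 cell line only and no count of cells arrested in mitosis.

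Monastrol inhibits the motor KIF11, also called Eg5, a kinesin that pushes the spindle poles apart; cells exposed to it form monopolar spindles. Vincristine, a vinca alkaloid, binds the tubulin dimer and keeps it from entering microtubules. Cells keep the pool of free tubulin in check through the stability of tubulin mRNA, which is broken down faster when free dimers accumulate. Many mitotic genes are switched on late in the cell cycle through promoter elements called the CCAAT box and the CHR (cell cycle genes homology region), and genes of sterol synthesis are switched on by the factor SREBP2 when membrane sterol is low.

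Values are log2 intensities from RMA for HT HG-U219 arrays, with 1 probe set per gene (that of the highest mean in the series) and 18239 genes in all. Differences are log2 monastrol minus vincristine ± standard error from limma, in a fit of the 94 arrays of 6 h, and a gene was called at a Benjamini-Hochberg adjusted p under 0.05. A difference of 1 is a fold of 2. The upper quartile of the 94 arrays ran from 8.15 to 8.35, and none was of low signal, taken here as an upper quartile below 8 or a gap over 2 between the 3' and 5' ACTB probe sets. Vincristine 0.01 uM replicate 1 stood apart: its bioB spike-in read 9.96, against 8.16 and 7.76 in the other vincristine 0.01 uM arrays, and its upper quartile was 8.20, against 8.28 and 8.32. The 3 vincristine 0.01 uM arrays also lay farther from their group mean than most, at ranks 4, 9 and 6 of 94, so the main counts are also given without replicate 1. HLA-DRA, an antigen presentation gene of B cells, read 13.22 on average with monastrol 100 uM and was the highest of 11 B cell line markers, whose median was 4.96, with 5 of the 11 above the median probe set. Of these markers 1 was called between the compounds (CD40, higher with monastrol). Limma called 0 of 14 T and NK, 11 myeloid, 11 stromal and endothelial, 8 epithelial and 6 erythroid and platelet markers. The highest myeloid marker was CD68 at 6.04, with a list mean of 4.24 to 4.39 on the monastrol arrays, 4.14 to 4.43 with vincristine and 4.25 to 4.40 in DMSO, while CD5 of the T cell list (9.68) and THY1 of the stromal list (10.39) were high in all groups.

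Promoters of 4 genes on which the results turn are printed here, because they show the CCAAT box and CHR letters that are counted next. They are the 250 bases before the RefSeq start (GRCh38.p14), 5′ to 3′ on the gene's strand, with each CCAAT box (CCAAT or ATTGG) and each CHR (TTTGAA or TTCAAA) in capitals. KIF11 encodes the target of monastrol (chr10:92592880-92593129, plus strand), CCNB2 a mitotic cyclin (chr15:59104896-59105145, plus strand), DHCR7 the last enzyme of a branch of cholesterol synthesis (chr11:71448394-71448643, minus strand) and MVD a mevalonate pathway enzyme (chr16:88663092-88663341, minus strand).
KIF11: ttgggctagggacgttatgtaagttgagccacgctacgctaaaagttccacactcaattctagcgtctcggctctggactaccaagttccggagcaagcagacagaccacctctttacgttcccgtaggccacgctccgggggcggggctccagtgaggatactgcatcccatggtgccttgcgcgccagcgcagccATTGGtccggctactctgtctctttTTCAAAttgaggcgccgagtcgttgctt
CCNB2: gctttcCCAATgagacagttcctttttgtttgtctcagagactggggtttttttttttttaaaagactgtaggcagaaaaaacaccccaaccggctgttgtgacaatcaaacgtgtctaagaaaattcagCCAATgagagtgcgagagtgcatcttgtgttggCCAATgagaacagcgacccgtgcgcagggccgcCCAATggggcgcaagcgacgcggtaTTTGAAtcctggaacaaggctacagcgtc
DHCR7: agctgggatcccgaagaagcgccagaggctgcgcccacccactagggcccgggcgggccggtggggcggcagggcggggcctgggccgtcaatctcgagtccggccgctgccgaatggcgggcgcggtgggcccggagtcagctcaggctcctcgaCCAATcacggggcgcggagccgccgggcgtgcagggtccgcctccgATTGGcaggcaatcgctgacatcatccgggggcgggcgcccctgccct
MVD: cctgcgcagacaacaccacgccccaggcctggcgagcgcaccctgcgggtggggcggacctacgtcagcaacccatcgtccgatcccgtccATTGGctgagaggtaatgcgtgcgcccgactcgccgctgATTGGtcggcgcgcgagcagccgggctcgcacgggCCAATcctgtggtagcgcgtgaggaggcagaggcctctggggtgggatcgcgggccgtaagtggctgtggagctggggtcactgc
The CHR letters of KIF11 and CCNB2 began 28 and 29 bases before the start, and a CCAAT box stood 53 and 54 bases before it. DHCR7 held CCAAT boxes at 94 and 48 bases and MVD at 159, 120 and 85 bases, and neither held CHR letters. A CCAAT box was found in 13 of 20 promoters of mitotic kinesins, 19 of 29 of mitotic kinases, cyclins and APC/C genes, 20 of 32 of kinetochore genes, 15 of 22 of cholesterol and fatty acid synthesis genes, 21 of 35 of DNA replication genes and 11 of 21 of tubulins, against 34.6% of the 14492 promoters matched to genes on the array. CHR letters were found in 6 of 20 promoters of the kinesins, 14 of 29 of the mitotic kinase list and 8 of 32 of the kinetochore genes, against 10.8% of all, and in 1 of 22 of the synthesis genes, 1 of 35 of the replication genes and 2 of 21 of the tubulins. The letters TCACNCCAC, a core of the sterol response element, were found in 1 of 22 synthesis promoters, against 0.883% of all, and in 0 of the 12 whose genes were called higher. Both strands were searched, no CCAAT box overlaps a CHR in the printed promoters, and a match of letters is no measured binding.

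Between monastrol 100 uM and vincristine 0.01 uM, 1148 of 18239 genes were called (6.29%), 715 higher with monastrol and 433 lower. The median size of a called difference was 0.37 for the higher and 0.35 for the lower genes, and 3 genes reached 1 or more. The 3 monastrol and 3 vincristine arrays did not overlap for 1046 of the called genes; 18.8% of all genes had no overlap. When vincristine replicate 1 was left out, 605 genes were called (3.32%), 333 higher (1.83%) and 272 lower (1.49%), of which 303 and 223 were also called with all arrays. Leaving out other arrays also moved the count, to 629 without monastrol replicate 1, 737 without monastrol replicate 2 and 1727 without vincristine replicate 3. With only the 6 arrays in the fit, 162 were higher (0.888%) and 91 lower (0.499%), 253 in all (1.39%). The genes called lower lay below the median probe set (5.79) in 29.6% of cases, and 12.5% without vincristine replicate 1, against 44.5% of all genes.

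Tubulin genes separated the compounds. Of 21 measured tubulin genes, 6 were called higher with monastrol and 0 lower, where 3.92% of all genes were called higher and 2.37% lower; the list's median was 0.15, against 0.00 for all genes. TUBB3, a beta-tubulin, read 11.66, 11.68 and 11.68 with monastrol and 11.25, 11.17 and 11.16 with vincristine, a difference of 0.48 ± 0.05 (adjusted p = 2.93e-10). Every monastrol array lay above every vincristine array, and the 8 DMSO arrays lay between them, from 11.43 to 11.63. TUBB, a widely expressed beta-tubulin, read 13.48, 13.54 and 13.58 with monastrol and 13.08, 13.32 and 13.16 with vincristine (0.35 ± 0.05, adjusted p = 2.05e-07). The monastrol arrays overlapped the DMSO arrays of TUBB (13.39 to 13.55) while all 3 vincristine arrays lay below them.

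TUBG2, a gamma-tubulin of the nucleating complex, differed from this pattern in where DMSO lay: monastrol arrays read 9.76, 9.73 and 9.66, vincristine arrays 9.28, 9.11 and 9.33, and DMSO arrays 9.19 to 9.51. It was 0.48 ± 0.09 higher with monastrol than with vincristine and 0.39 higher than in DMSO (adjusted p = 0.000173), and its vincristine difference from DMSO was -0.08 (adjusted p = 0.684). The beta-tubulins TUBB2A (0.29 ± 0.06) and TUBB4B (0.17 ± 0.04) and the gamma-tubulin TUBG1 (0.23 ± 0.06) were the other members called. TUBB2A lay below DMSO under both compounds, by 0.16 with monastrol (adjusted p = 0.0341) and by 0.45 with vincristine (adjusted p = 3.64e-09). TUBA1B, an abundant alpha-tubulin, was not called (0.12 ± 0.06, 95% interval 0.00 to 0.23, adjusted p = 0.227). Its vincristine arrays read 13.42, 13.05 and 13.28, and without replicate 1 the difference was 0.20 (adjusted p = 0.0402). With that array left out, 5 tubulin genes were called higher and 0 lower, against 1.83% and 1.49% of all genes. TUBB4B and TUBG1 were no longer among them. Tubulin genes resemble each other in sequence, and how far their probe sets read each other was not tested.

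**Figure D1:**
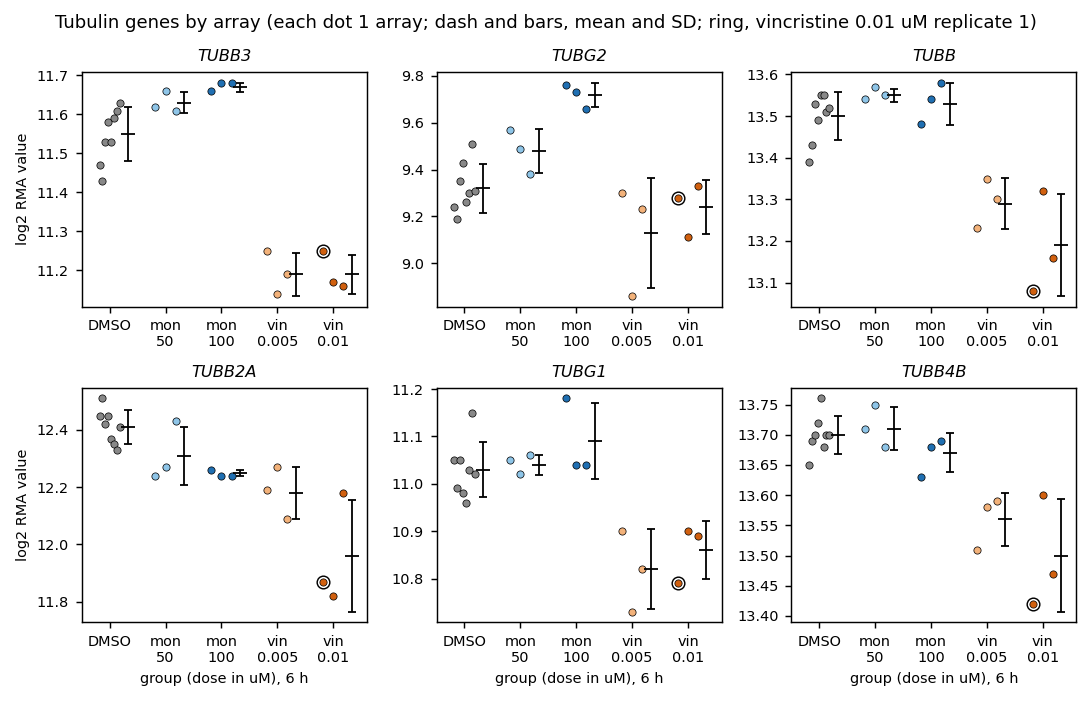
Log2 RMA value (vertical axis) of the 6 tubulin genes called between monastrol 100 uM and vincristine 0.01 uM, in DMSO and at each dose in uM (horizontal axis); each dot is 1 array, the dash and bars are mean and SD, and the ring marks vincristine 0.01 uM replicate 1. In TUBB3 the vincristine arrays of both doses lie between 11.14 and 11.25, below the lowest DMSO array at 11.43, and the monastrol 100 uM arrays lie at 11.66 to 11.68.

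Transcripts of the mitotic machinery had more members called lower than higher with monastrol, and few called at all. Of 20 mitotic kinesins, 2 were called lower with monastrol and 0 higher (median -0.10). Of 35 mitotic kinases, cyclins and APC/C genes, 3 were lower and 0 higher (median -0.12). Of 38 kinetochore and centromere genes, 4 were lower and 1 higher (median -0.09). Over all genes, 2.37% were called lower and 3.92% higher. Leaving out each of the 6 compared arrays in turn gave 2 to 4 kinesins lower. It gave 2 to 5 of the mitotic kinase list and 1 to 6 kinetochore genes lower, with 242 to 682 of all genes lower. KIF11, the target of monastrol, read 10.91, 10.72 and 10.78 with monastrol and 11.03, 11.10 and 11.19 with vincristine, a difference of -0.30 ± 0.06 (adjusted p = 0.000109). DMSO arrays of KIF11 read 10.79 to 10.97, with 1 monastrol array inside that range and 2 just below it, and the vincristine arrays lay above it, 0.26 over the DMSO mean (adjusted p = 0.000329). Its promoter is the one printed above with the CHR 28 bases before the start. KIFC1, a minus-end kinesin that draws spindle poles together, read 9.43, 9.38 and 9.48 against 9.88, 9.85 and 9.74 (-0.39 ± 0.10, adjusted p = 0.00587).

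CDC25A, the phosphatase that activates cyclin-dependent kinases, read 9.23, 9.27 and 9.13 with monastrol and 9.69, 9.78 and 9.68 with vincristine (-0.51 ± 0.08, adjusted p = 2.2e-06). It was 0.28 below DMSO with monastrol (adjusted p = 0.00147), and its vincristine difference from DMSO of 0.23 was not called (adjusted p = 0.0525). CCNB2 read 10.75, 10.78 and 10.73 against 10.99, 11.07 and 11.02 (-0.27 ± 0.06, adjusted p = 0.000684), with the monastrol arrays inside the DMSO range of 10.66 to 10.90. SKA3, part of the complex that couples kinetochores to microtubules, differed by -0.36 ± 0.09 and was 0.45 above DMSO with vincristine. TACC3, a spindle microtubule protein listed with the centrosome, differed by -0.42 ± 0.10 and was 0.39 above DMSO with vincristine. The cytokinesis protein PRC1 (-0.19 ± 0.06) and the kinetochore genes CENPW (-0.24 ± 0.06), CENPU (-0.19 ± 0.06) and ZWINT (-0.15 ± 0.04) were also called lower, and CENPP, a centromere gene, was called higher (0.32 ± 0.10). When vincristine replicate 1 was left out, the calls of PRC1, CENPW, CENPU and CENPP were lost, while KIF11, KIFC1, CDC25A, CCNB2, SKA3, ZWINT and TACC3 were still called.

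**Figure D2:**
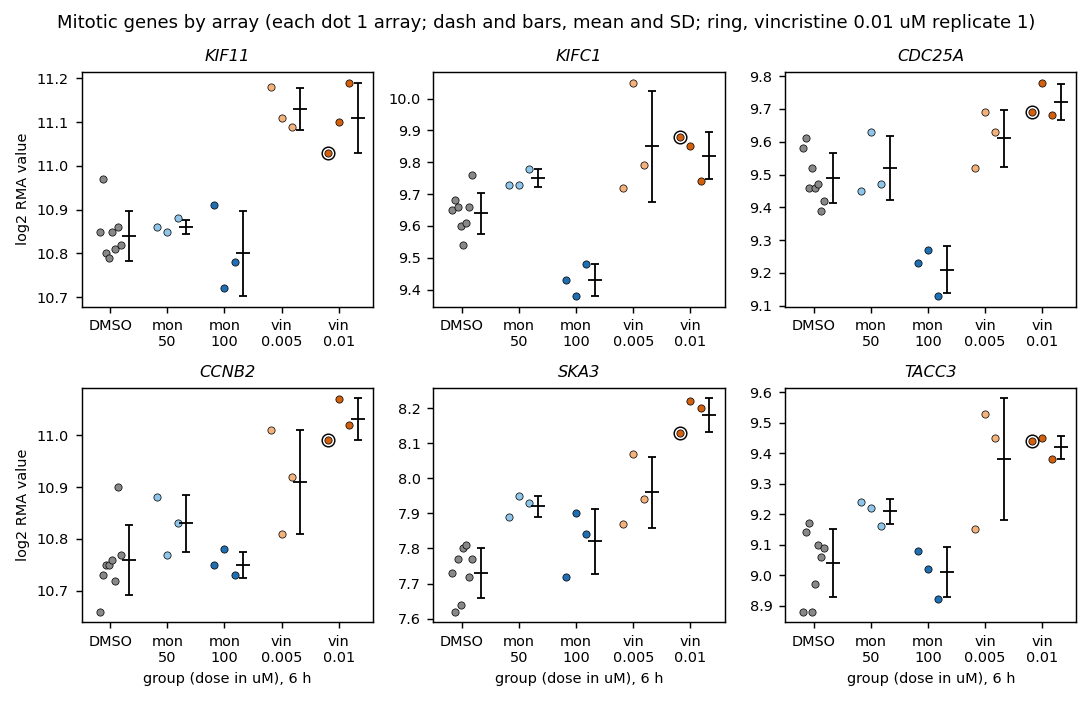
Log2 RMA value (vertical axis) of 6 mitotic genes called between the compounds, in DMSO and at each dose in uM (horizontal axis); each dot is 1 array, the dash and bars are mean and SD, and the ring marks vincristine 0.01 uM replicate 1. The KIF11 arrays of vincristine lie at 11.03 to 11.19 at the higher dose, above the highest DMSO array at 10.97, while the monastrol arrays of 100 uM lie at 10.72 to 10.91.

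Both compounds were also set against the same 8 DMSO arrays, which they share. At 0.01 uM vincristine, 4 mitotic kinesins, 9 mitotic kinases, cyclins and APC/C genes and 3 kinetochore genes were higher than in DMSO. In each list 0 were lower, where 0.532% of all genes were called higher and 0.417% lower. Without replicate 1 of that dose, 2, 7 and 2 were higher, against 0.137% of all genes. At 0.005 uM the counts were 11 of 20, 16 of 35 and 9 of 38, with 0 lower, against 1.8% of all genes. At monastrol 100 uM they were 0, 4 and 2 higher and 0, 1 and 3 lower, against 4.61% higher and 2.99% lower, and at 50 uM 1, 7 and 3 higher and 1, 0 and 0 lower, against 0.959% higher and 0.51% lower. PLK1, a mitotic kinase, was above DMSO under both compounds, by 0.27 with monastrol (adjusted p = 0.00749) and 0.39 with vincristine 0.01 uM (adjusted p = 0.000338), and the difference between the compounds was not called (-0.12 ± 0.08, 95% interval -0.29 to 0.04). AURKA, another mitotic kinase, was likewise 0.13 and 0.28 above DMSO (adjusted p = 0.0404 and 1.65e-05), with a difference between compounds of -0.15 ± 0.05 (adjusted p = 0.0684). How many cells of each well stood in mitosis was not measured, so more mitotic cells and more transcript per cell cannot be told apart.

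Genes of cholesterol and fatty acid synthesis were the list with the most called members. Of 25 measured, 13 were higher with monastrol and 0 lower, with a median of 0.21. Over all genes, 3.92% were called higher and 2.37% lower. DHCR7 read 9.39, 9.34 and 9.44 with monastrol and 8.57, 8.60 and 8.78 with vincristine, a difference of 0.74 ± 0.07 (adjusted p = 2.81e-13). DMSO arrays read 8.65 to 8.88; 1 vincristine array lay inside that range and 2 just below it, and all 3 monastrol arrays lay above it. INSIG1, which holds the SREBP activator in the endoplasmic reticulum and is itself an SREBP target, read 11.21, 11.02 and 10.95 against 10.63, 10.35 and 10.68 (0.51 ± 0.08, adjusted p = 3.18e-06). ELOVL6, a fatty acid elongase, differed by 0.61 ± 0.16, and this call was lost without vincristine replicate 1 (adjusted p = 0.0662). FADS2, a fatty acid desaturase, read 9.33, 9.26 and 9.33 against 8.88, 8.85 and 8.78 (0.47 ± 0.10, adjusted p = 0.000925), without overlap of the groups. The sterol enzymes MSMO1 (0.44 ± 0.08), MVD (0.42 ± 0.10), MVK (0.38 ± 0.09), SC5D (0.27 ± 0.08), HMGCS1 (0.25 ± 0.07) and ACAT2 (0.17 ± 0.05) were higher, as were SCD, the stearoyl-CoA desaturase (0.35 ± 0.06), the carboxylase ACACA (0.32 ± 0.09) and the desaturase FADS1 (0.23 ± 0.07). The calls of ACACA, SC5D and FADS1 were also lost without that array.

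Of the 25, 16 were higher than in DMSO with monastrol 100 uM and 12 with 50 uM, where 4.61% and 0.959% of all genes were called higher. With vincristine 0.01 uM limma called 0 of the 25 against DMSO in either direction. Only 0.949% of all genes were called there, so a count of 0 is near that share. With 0.005 uM 2 were higher, against 1.8% of all genes. Between the compounds, 10 were called higher and 0 lower with vincristine replicate 1 left out, against 1.83% and 1.49% of all genes. The 8 genes of cholesterol efflux, targets of the sterol sensor LXR, had 0 members called in either direction (median -0.03).

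**Figure D3:**
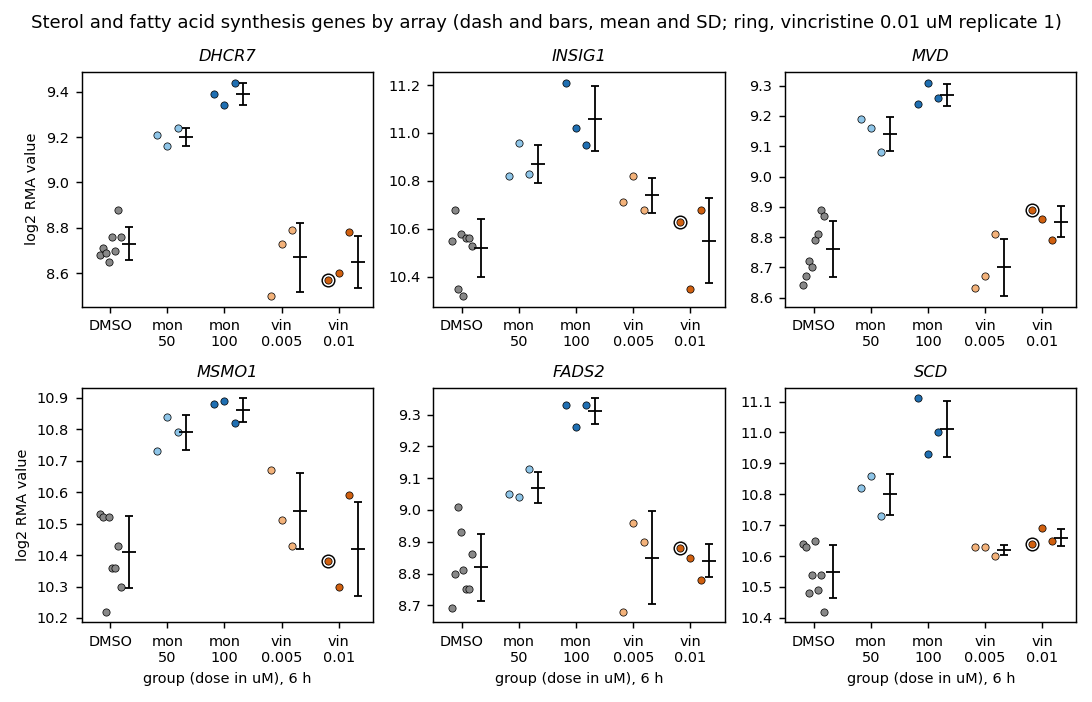
Log2 RMA value (vertical axis) of 6 sterol and fatty acid synthesis genes in DMSO and at each dose in uM (horizontal axis); each dot is 1 array, the dash and bars are mean and SD, and the ring marks vincristine 0.01 uM replicate 1. The DHCR7 arrays of monastrol 100 uM lie at 9.34 to 9.44, above the highest DMSO array at 8.88, and the vincristine arrays of both doses lie at 8.50 to 8.79.

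Lists of DNA replication and ribosome biogenesis had more members called lower with monastrol than higher. Of 40 DNA replication genes, 10 were called lower and 1 higher (median -0.15), against 2.37% and 3.92% of all genes. GINS3, a subunit of the replicative helicase complex, read 8.49, 8.44 and 8.39 with monastrol and 8.94, 8.90 and 9.23 with vincristine (-0.58 ± 0.10, adjusted p = 2.2e-05). Its DMSO arrays (8.88 to 9.19) overlapped the vincristine arrays and lay above all monastrol arrays. FEN1, the flap endonuclease of lagging strand synthesis, differed by -0.44 ± 0.07, RRM2, a subunit of ribonucleotide reductase, by -0.42 ± 0.07, and MCM4 of the replicative helicase by -0.29 ± 0.08. CDC6, a licensing gene kept in the list of G1/S genes, differed by -0.32 ± 0.07. PRIM1, a primase subunit, was the member called higher (0.32 ± 0.09). Leaving out vincristine replicate 1 gave 6 replication genes lower and 0 higher, against 1.49% and 1.83% of all genes. MCM4 and PRIM1 were then no longer called. Of the 40, monastrol 100 uM had 13 below DMSO and 1 above, against 2.99% and 4.61% of all genes. Vincristine 0.01 uM had 0 of the 40 called in either direction by limma. Only 0.949% of all genes were called in that comparison, so a count of 0 is near that share.

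Among 28 genes of the MYC network and ribosome biogenesis, 4 were lower and 0 higher, against 2.37% and 3.92% of all genes. RRS1, a ribosome assembly factor, read 9.84, 9.79 and 9.92 with monastrol and 10.23, 10.47 and 10.27 with vincristine (-0.47 ± 0.06, adjusted p = 3.19e-08), and its DMSO arrays read 10.22 to 10.40. The others were POLR1B, a subunit of RNA polymerase I (-0.38 ± 0.09), NOP58 of the box C/D particle (-0.27 ± 0.08) and NPM1, nucleophosmin (-0.17 ± 0.05), whose call was lost without vincristine replicate 1 (adjusted p = 0.0675). The ribosome assembly genes NOP16 and BYSL, outside that list, were among the 5 largest falls of monastrol against DMSO (-0.68 and -0.64) and differed between the compounds by -0.51 ± 0.11 and -0.45 ± 0.09.

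Lists of stress and signalling genes were counted in the same way, beside 3.92% of all genes called higher and 2.37% lower. Without vincristine replicate 1 these shares were 1.83% and 1.49%. Of 22 heat shock chaperones, 5 were lower with monastrol and 1, the factor HSF1 (0.27 ± 0.09), higher. HSF1 was not called without vincristine replicate 1 (adjusted p = 0.0619), and 3 of the chaperones were then lower and 0 higher. Leaving out each of the 6 compared arrays in turn gave 1 to 5 chaperones lower, with 242 to 682 of all genes lower. CHORDC1, an HSP90 partner, read 9.08, 9.14 and 9.26 against 9.54, 9.57 and 9.81 (-0.48 ± 0.11, adjusted p = 0.00346), and HSPA1L, an HSP70 family gene, differed by -0.47 ± 0.14. Of 33 ATF4 amino acid and stress genes, 4 were higher and 0 lower: CTH, of cysteine synthesis (0.53 ± 0.08), TRIB3, a pseudokinase (0.51 ± 0.09), SESN2, a stress sestrin (0.30 ± 0.07), and ATF4 itself (0.15 ± 0.05). Of 25 NRF2 and metal response genes, 7 were higher and 0 lower, led by the metallothionein MT1X, at 11.93, 12.10 and 12.12 against 11.58, 11.63 and 11.46 (0.49 ± 0.08, adjusted p = 3.15e-06). That list had 3 higher and 1 lower when vincristine replicate 1 was left out. Of 49 histone genes, 5 were higher and 0 lower, and without vincristine replicate 1 the counts were 3 and 0. H2BC5, a core histone H2B, read 9.53, 9.57 and 9.51 against 8.92, 8.76 and 8.83 (0.70 ± 0.07, adjusted p = 1.36e-11). The vincristine arrays of H2BC5 lay inside its DMSO range of 8.63 to 9.07. Histone and metallothionein genes have near copies, so the values may not belong to 1 gene alone.

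Of 35 immediate early and AP-1 genes, 7 were higher with monastrol and 1 lower, but 2 higher and 1 lower without vincristine replicate 1. Over all genes 3.92% were called higher and 2.37% lower, and 1.83% and 1.49% without that array. DUSP1, a MAP kinase phosphatase, read 11.17, 11.16 and 11.01 against 10.51, 10.82 and 10.77 (0.41 ± 0.11), and its call was lost without that array (0.32, adjusted p = 0.158). FOS was the member called lower (-0.40 ± 0.09), with vincristine 0.41 above DMSO (adjusted p = 0.000336) and monastrol 0.01 above it (adjusted p = 0.971). Of 27 NF-kappaB targets, 7 were higher and 2 lower, against 4 and 2 without that array. NFKBIA, the inhibitor IkappaB-alpha, read 13.33, 13.29 and 13.33 against 12.93, 13.03 and 12.97 (0.34 ± 0.06, adjusted p = 2.95e-05), and the receptor CD40 differed by 0.64 ± 0.12. CFLAR, the caspase-8 regulator c-FLIP, was lower on the probe set used (-0.32 ± 0.07), but its 9 probe sets ran from -0.32 to 0.34 and 3 of them had that sign. Of 36 p53 targets, 4 were higher (PLK3, SESN2, TP53I3 and CDKN1A, from 0.38 ± 0.09 to 0.20 ± 0.05) and TRIAP1 was lower. Among actin and SRF genes, 2 of 33 were called, both higher, beside 3.92% of all genes. ACTA2, smooth muscle actin, was among them, at 10.86, 10.84 and 10.88 against 10.33, 10.43 and 10.58 (0.41 ± 0.06, adjusted p = 5.34e-07).

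**Figure D4:**
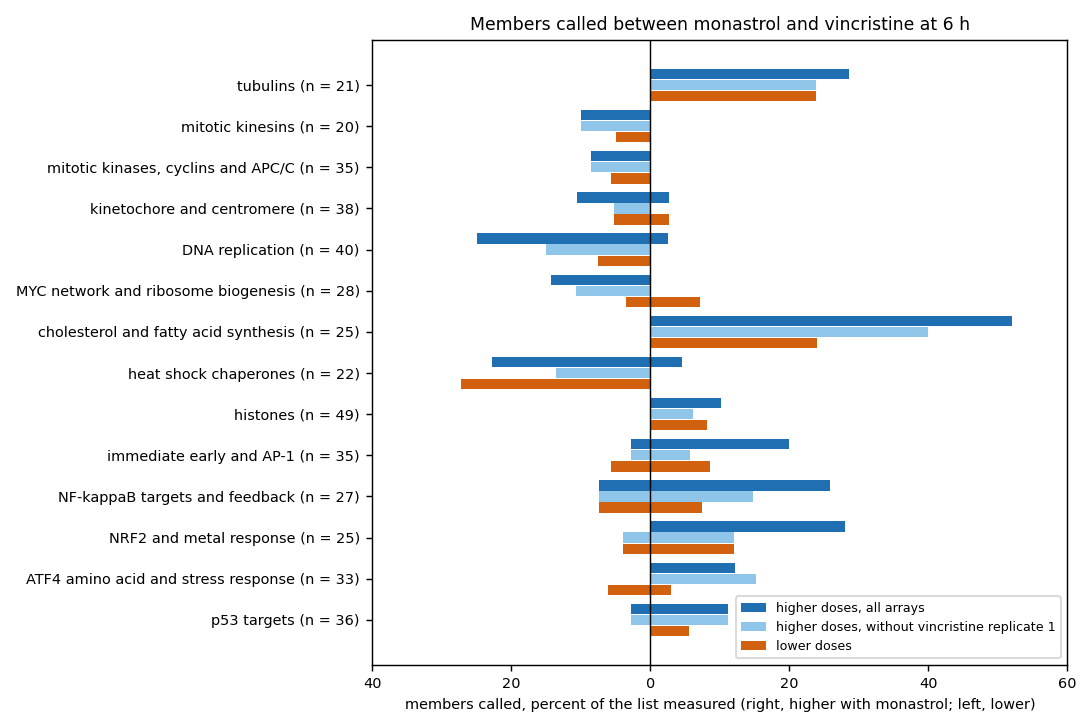
Members of 14 gene lists called between monastrol and vincristine at 6 h, as a percent of the members measured (horizontal axis; right of 0 higher with monastrol, left lower), for the higher doses with all arrays, the higher doses without vincristine replicate 1, and the lower doses. Cholesterol and fatty acid synthesis extends to the right with 13, 10 and 6 of 25 members, and tubulins with 6, 5 and 5 of 21. Over all genes 3.92%, 1.83% and 1.58% were called higher.

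The genes with the largest differences were mostly weakly expressed. The 15 called genes most above vincristine with no overlap of arrays were FMO5, C6orf52, DNHD1, SLC16A13, PHF7, APOLD1, TMEM116, RAD52, KLHL28, ZMYND12, GSTO2, FAM228B, ZRANB3, ST7L and CFAP43, and 9 of them had a mean below 5.79. FMO5, a flavin monooxygenase, read 5.85, 5.70 and 5.86 with monastrol and 3.98, 4.42 and 4.71 with vincristine (1.43 ± 0.17, adjusted p = 1.03e-09), and its DMSO arrays, 4.35 to 4.85, overlapped vincristine only. C6orf52, an open reading frame with no role named here, read 7.77, 7.81 and 7.73 against 6.27, 6.73 and 6.91 (1.13 ± 0.13, adjusted p = 2.04e-10). DNHD1, a dynein heavy chain domain protein, read 7.52, 7.42 and 7.41 against 5.94, 6.57 and 6.66 (1.06 ± 0.14, adjusted p = 7.12e-08). All 15 were above DMSO with monastrol, and 1, the monocarboxylate transporter family gene SLC16A13, was below DMSO with vincristine (-0.50, adjusted p = 0.0295). Of the 15, 14 were called without vincristine replicate 1 and KLHL28 was not (adjusted p = 0.0849). Probe sets of 1 gene disagreed in sign for APOLD1 (-0.01 and 0.91) and ZRANB3 (-0.07 and 0.81), and FMO5 had a second probe set with a difference of 0.06.

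The 15 most below vincristine were TSPOAP1, RBM12, CCIN, PTPN5, SNX22, LATS1, PRAP1, SNORA2C, DDX60, GINS3, ABHD16B, DOK3, HEATR5A, ACTL9 and CDH11, of which 11 had a mean below 5.79. TSPOAP1, a partner of the mitochondrial translocator protein TSPO, read 7.78, 7.77 and 7.75 with monastrol and 8.46, 8.75 and 8.38 with vincristine (-0.76 ± 0.12, adjusted p = 5.2e-06). RBM12, an RNA-binding protein, read 8.80, 8.52 and 8.69 against 9.30, 9.26 and 9.37 (-0.64 ± 0.08, adjusted p = 3.19e-08). Both were below DMSO with monastrol (-0.80 and -0.63) and near it with vincristine (-0.04 and 0.01). The weakly expressed PTPN5, a tyrosine phosphatase, showed the other arrangement, at 3.88, 3.99 and 3.92 against 4.78, 4.66 and 4.22 with vincristine and 3.69 to 4.30 in DMSO. Of the 15, 6 were below DMSO with monastrol and 5 above it with vincristine, and 12 were called without vincristine replicate 1 (not ACTL9, SNORA2C and CDH11). With only the 6 compared arrays in the fit, 4 of these 15 were called, against 13 of the 15 genes named higher. Probe sets disagreed in sign for HEATR5A (1 of 3 negative, -0.58 to 0.29), DOK3 (-0.58 and 0.07) and SNX22 (2 of 5 negative, -0.62 to 0.19).

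The lower doses gave a comparison of the same compounds on other arrays, monastrol 50 uM against vincristine 0.005 uM. It had 515 genes called (2.82%), 288 higher (1.58%) and 227 lower (1.24%). That count fell to 107, 199 and 274 without monastrol 50 uM replicate 1, 2 or 3 and to 81 without vincristine 0.005 uM replicate 2. Of the 715 genes higher at the higher doses, 609 (85.2%) were above 0 at the lower doses and 125 were called there, 17.5% of the first list and 43.4% of the second. Of the 433 lower, 339 (78.3%) were below 0 and 38 were called, 8.78% and 16.7%. All genes lay above 0 in 48.8% of cases and below in 50.5%. Without vincristine 0.01 uM replicate 1 the shares of the same sign were 93.7% and 88.6%. Over all genes the differences at the higher and lower doses had a Pearson correlation of 0.274, and 0.338 without that array. The median difference of the genes called higher was 0.37 at the higher doses and 0.16 at the lower, and of those called lower -0.35 and -0.09.

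Tubulin genes repeated at the lower doses, with 5 of 21 higher and 0 lower (TUBB3 0.44 ± 0.05, TUBG2 0.35 ± 0.09, TUBB 0.26 ± 0.05, TUBG1 0.23 ± 0.06 and TUBB4B 0.15 ± 0.04). TUBB3 read 11.62, 11.66 and 11.61 with monastrol 50 uM and 11.25, 11.14 and 11.19 with vincristine 0.005 uM, again without overlap. Of the synthesis genes, 6 of 25 were higher and 0 lower, among them DHCR7 (0.53 ± 0.07), MVK (0.47 ± 0.09), MVD (0.44 ± 0.10) and EBP, a sterol isomerase (0.42 ± 0.07). NSDHL and ACAT2 were the others, and 21 of the 25 were above 0. EBP and NSDHL had not been called at the higher doses. INSIG1, ELOVL6, FADS2, MSMO1 and SCD were among the genes called there but not at the lower doses. KIF11 was lower by 0.26 ± 0.06 (adjusted p = 0.003), with the vincristine arrays at 11.18, 11.11 and 11.09 and the monastrol arrays at 10.86, 10.85 and 10.88. It was the only 1 of 20 mitotic kinesins called. Of 35 mitotic kinases, cyclins and APC/C genes 2 were lower (ANLN and ASPM) and 0 higher. Of 38 kinetochore genes 2 were lower (CENPK and ZWINT) and 1 higher (CENPM). Over all genes 1.24% were lower and 1.58% higher. KIFC1, CDC25A, CCNB2, PRC1, SKA3, CENPW, CENPU, CENPP and TACC3 were not called at these doses. Of the heat shock chaperones, 6 of 22 were lower and 0 higher, CHORDC1 by 0.58 ± 0.11. Replication genes had 3 lower of 40 (RRM2, RFC3 and GMNN). Of the 15 genes named lower, 2 were again called, RBM12 (-0.55 ± 0.08) and TSPOAP1 (-0.51 ± 0.12). Of the 15 named higher, C6orf52, DNHD1, TMEM116 and ZMYND12 were.

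**Figure D5:**
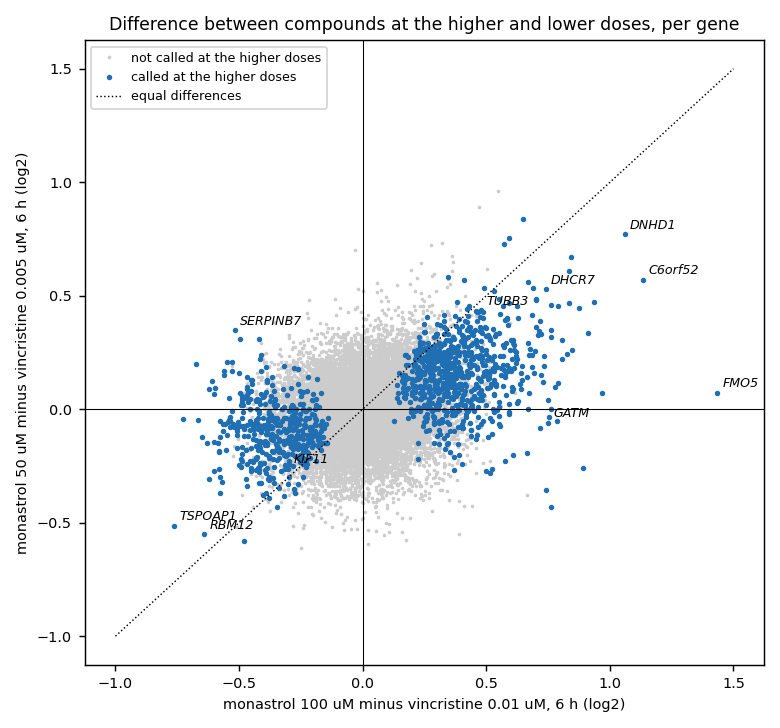
Difference monastrol minus vincristine (log2) of each of 18239 genes at the higher doses (horizontal axis) and at the lower doses on other arrays (vertical axis); blue points are called at the higher doses and the dotted line marks equal differences. DHCR7 (0.74 and 0.53) and TUBB3 (0.48 and 0.44) lie near the line, and FMO5 (1.43 and 0.07) and GATM (0.75 and -0.06) lie near the horizontal axis.

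A test of the difference between the higher and lower dose contrasts called 4 genes (0.0219%), 3 positive (0.0164%) and 1 negative (0.00548%). FMO5 (1.36, adjusted p = 0.00221), GATM, of creatine synthesis (0.81, adjusted p = 0.0247), and TRIM24, a chromatin reader (0.44, adjusted p = 0.0321), had larger monastrol minus vincristine differences at the higher doses, and the serpin SERPINB7 a smaller one (-0.86, adjusted p = 0.0247). TRIM24 was called in opposite directions at the higher and lower doses (0.22 and -0.22), and 2 of 3 probe sets of GATM shared its sign. Leaving out vincristine 0.01 uM replicate 1 gave 3 genes (0.0164%), 2 positive (0.011%) and 1 negative (0.00548%), leaving out its replicate 3 gave 283, and leaving out its replicate 2, or monastrol 100 uM replicate 1 or 3, gave 1. Of the lower-dose arrays, vincristine 0.005 uM replicates 2 and 3 each left 1 gene when left out, monastrol 50 uM replicate 3 left 2, and monastrol 50 uM replicate 1 left 0 in limma (1691 at an unadjusted p under 0.05). Between the monastrol doses, 6 genes were called (0.0329%), 2 higher at 100 uM (0.011%) and 4 lower (0.0219%), and 3 in all without monastrol 100 uM replicate 3 or 50 uM replicate 2, and 1 without 50 uM replicate 1 or 3. FMO5 (0.92) and the zinc finger gene ZNF25 (0.40) were higher, and SNRNP35 (-0.45), TRA2A (-0.44), the cyclin CCNE1 (-0.39) and HNRNPAB (-0.24) lower; 1 of 3 probe sets of SNRNP35 shared its sign between the compounds. Between the vincristine doses, 163 were called (0.894%), 57 higher (0.313%) and 106 lower (0.581%) at 0.01 uM with all arrays. Limma called 0 genes without replicate 1 of 0.01 uM (1523 at an unadjusted p under 0.05), 86 without its replicate 2 and 1768 without its replicate 3, and 368, 4 and 33 without replicate 1, 2 or 3 of 0.005 uM. The largest rises were LRRC71 (0.72), LRRTM1 (0.71), OR5B21 (0.71), PPP3R2 (0.70) and SERPINB7 (0.67), and the largest falls NBEAL1 (-0.83), KBTBD6 (-0.73), MICU3 (-0.73), SCAPER (-0.73) and STRN (-0.69). LRRTM1 is a neuronal adhesion gene, and its vincristine arrays read 6.31, 4.99 and 5.22, so that replicate 1 alone was high.

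Against DMSO, monastrol 100 uM had 1385 genes called (7.59%), 840 higher and 545 lower, and 722, 812 and 823 without its replicate 1, 2 or 3. Vincristine 0.01 uM had 173 (0.949%), 97 higher and 76 lower (0.417%), but 35 (0.192%) without replicate 1, 25 higher (0.137%) and 10 lower (0.0548%), and 859 without replicate 3. The comparisons share the DMSO arrays; leaving out each of these in turn kept the counts within 1.5 times. Monastrol 50 uM had 268 (1.47%), 175 higher and 93 lower, and vincristine 0.005 uM 476 (2.61%), 329 higher and 147 lower (0.806%). The vincristine 0.005 uM arrays lay nearer to their group mean than those of the higher dose, at ranks 23, 53 and 70 of 94. The largest rises of monastrol were DNHD1 (1.23), FMO5 (1.18), APOLD1 (1.09), C6orf52 (0.92) and TMEM187 (0.91), and the largest falls TSPOAP1 (-0.80), NOP16 (-0.68), BYSL (-0.64), SERTAD4 (-0.64) and RBM12 (-0.63). For vincristine the largest rises were LRRTM1 (0.77), LRRC71 (0.67), TNNC2 (0.66), PTPN5 (0.59) and KRTAP5-10 (0.58), all weakly expressed, and the largest falls UHMK1 (-1.02), SNORA28 (-0.74), KANSL1L (-0.71), NBEAL1 (-0.68) and TRMT9B (-0.63). Of these 10, only KANSL1L was called without replicate 1 (-0.72, adjusted p = 0.0458). UHMK1 read 6.39, 7.38 and 7.04 with vincristine 0.01 uM and 7.47 to 8.67 in DMSO, without overlap, and differed by -0.74 without replicate 1 (adjusted p = 0.25).

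The same pair of treatments was also harvested at 12 and 24 h, where 31 and 17 of the 94 arrays were of low signal, among them monastrol 100 uM replicate 1 at 24 h. With all arrays limma called 0 genes at 12 h (374 at an unadjusted p under 0.05) and 20 at 24 h (8 higher, 0.0439%, and 12 lower, 0.0658%). With the low-signal arrays left out, 1012 were called at 12 h (5.55%) and 4334 at 24 h (23.8%): 732 were higher (4.01%) and 280 lower (1.54%) at 12 h, and 2073 higher (11.4%) and 2261 lower (12.4%) at 24 h, where monastrol is left with 2 arrays. At 12 h none of the 6 arrays compared was of low signal, so the counts of 0 and 1012 rest on the same 6 arrays and differ in the other groups fitted. Monastrol 100 uM replicate 1 stood apart at 12 h, with a bioB spike-in of 7.10 against 9.98 and 10.25 and an upper quartile of 8.36 against 8.24 and 8.21, and its part was not tested in the fit without low-signal arrays. The 2 monastrol arrays of 24 h had upper quartiles of 8.07 and 8.05 and GAPDH 3' minus 5' differences of 0.26 and 0.22, against 8.27, 8.24 and 8.18 and -0.12, -0.02 and 0.02 with vincristine, and the part of RNA quality in the 24 h differences was not tested. Without the low-signal arrays, 4 of 11 myeloid, 3 of 8 epithelial and 3 of 11 stromal markers were also higher at 24 h, and their part was not tested. Tubulin genes had 7 of 21 higher and 0 lower at 12 h and 8 higher and 1 lower at 24 h, and synthesis genes 10 of 25 and 12 of 25 higher with 0 lower. TUBB3 was no longer called at 24 h (0.09, adjusted p = 0.414), and TUBB4B was (0.28, adjusted p = 6.65e-06). Of 36 p53 targets, 22 were lower with monastrol at 24 h and 0 higher, among them TP53INP1 (-1.16), the apoptosis effector BAX (-0.93), RRM2B (-0.91) and the p53 ligase MDM2 (-0.88). Among all genes, the largest 24 h differences without the low-signal arrays were OSBPL10 (1.45), H2AC16 (1.43), MSRB2 (1.40), MMP16 (1.39) and TNFRSF11B (1.38) upward and NECTIN4 (-1.82), DBT (-1.77), TNFRSF19 (-1.75), HDAC8 (-1.72) and RFX7 (-1.63) downward. The change of the compound difference from 6 to 24 h was called for 35 genes (0.192%) with all arrays, 11 up (0.0603%) and 24 down (0.132%), and for 3613 (19.8%) without the low-signal arrays, 1703 up (9.34%) and 1910 down (10.5%). With all arrays the largest changes were NXPE4 (1.78), CTAG2 (1.76), PPP1R2P1 (1.64), OSBPL10 (1.60) and OXT (1.57) upward and DBT (-2.37), FAM169A (-1.93), BBOF1 (-1.89), PIM2 (-1.82) and BCL11A (-1.80) downward.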

How the data were processed

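The deposited values are log2 intensities that the authors made with RMA from HT HG-U219 arrays, per the submitters' processing notes; the RMA version, and whether the 3 times were normalized together, are not given in the sources used here. Of 49386 probe sets, 93 controls, 1327 with several symbols and 2713 with none were left out; for 11822 of 18239 genes, the probe set with the highest mean over all arrays was used. Each time was fitted with limma 3.58.1 (R 4.3.3; lmFit, contrasts.fit, eBayes with trend) over all its 94 arrays, 1 mean for each of 29 groups; p-values were adjusted by Benjamini-Hochberg over all genes. Array number limits the precision. On simulated data for the 6 h comparison of 18239 genes, a difference of 0.25 was called for 18% of genes and 0.5 for 74%. A difference of -0.5 was called for 78% and 1 for 100%, with 8 false calls among 18039 unchanged genes. The compared vincristine arrays lay farther from their group mean than most, at ranks 4, 9 and 6 of 94. Whether the simulated rates hold at that spread was not tested.

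The pair of treatments, the gene lists and the tests were chosen with earlier results of these data known. Genes were named by rule: in the 6 h comparison the 15 largest called differences in each direction without overlap of arrays, up to 4 called members with the largest differences per list, and KIF11, TUBA1B and TUBB; in the DMSO, dose and time comparisons the 5 largest called in each direction; other list members, and PLK1 and AURKA, were named after their values were seen. Replicate numbers were not used as pairs: same-numbered arrays of the 2 treatments deviated with correlations of -0.121, -0.023 and -0.076. Promoters are RefSeq's (GRCh38.p14). The alternatives were a second quantile normalization, a filter dropping the weakest 40% of genes, averaging a gene's probe sets, fitting only the arrays compared, a replicate block, and leaving out arrays; leaving out arrays for the dose comparisons, and DMSO arrays, was chosen after seeing the data.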

Additional observations from a re-analysis of the deposited data

Results flagged for a closer look

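The difference between the higher and lower dose contrasts was called for 4 genes with all arrays and 3 without vincristine 0.01 uM replicate 1. The change of the compound difference from 6 to 24 h was called for 35 genes with all arrays and 3613 without low-signal arrays.

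In 14 of 102 named genes, 1 of the 8 DMSO arrays lay far from the others; about 1 in 20 such groups would by chance. DMSO replicate 2 was the far array for DDX60 (3.95, group median 4.55), ELOVL6 (5.64, median 5.99), KIF11 (10.97, median 10.84) and SNORA2C (3.88, median 4.38). Replicate 5 was far for CENPP (7.62), GSTO2 (5.73) and HSPA1L (6.89), replicate 6 for ACTL9 (4.92) and H2AC11 (6.11), and replicate 7 for CCNB2 (10.90) and PRKCB (6.75). Replicate 8 was far for CFAP43 (4.81), replicate 3 for OAS3 (7.37) and replicate 4 for PRC1 (10.30). The monastrol minus vincristine differences do not use the DMSO means. The DMSO arrays do enter the pooled spread behind the standard errors and adjusted p-values of those differences.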

How the results depend on the processing

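The 1148 calls of the 6 h comparison became 253 with only the 6 arrays fitted and 605 to 1727 without 1 array. Under the other alternatives the count lay within 1.5 times, but the genes and the split by direction moved. With the mean of all probe sets, 767 of the 1148 were still called. After quantile normalization again, 52.9% of the calls were higher with monastrol, against 62.3% in the main fit. The lower-dose count of 515 became 1012 with only its arrays, 805 without the 40% of genes with the lowest mean, and 81 to 456 without 1 array. Vincristine 0.01 uM against DMSO (173) gave 14 with only its arrays, 111 without the weak genes and 35 to 859 without 1 array; monastrol 100 uM against DMSO (1385) gave 722 to 1433 without 1 array. Leaving out a DMSO array kept both counts within 1.5 times. The monastrol doses (6) gave 34 with the mean of all probe sets, 129 with only their arrays, 10 after quantile normalization again and 1 to 7 without 1 array. The vincristine doses (163) gave 0 with only their arrays (1537 at an unadjusted p under 0.05 in limma), 76 after quantile normalization again, which split 40 higher and 36 lower, and 0 to 1768 without 1 array. The dose interaction gave 0 to 283 without 1 array. At 12 h the count of 0 (374 at an unadjusted p under 0.05 in limma) was 1 with the replicate block, 1012 without low-signal arrays and 0 without any 1 array; at 24 h, 20 became 4334 without low-signal arrays and 0 to 65 without 1 array, and the change from 6 to 24 h, 35, became 3613 and 2 to 218. The cause was not tested. With the replicate block the main comparison had 1114 calls; in that fit 99 of 102 named genes kept their side of the threshold. Vincristine 0.01 uM against DMSO had 168 with the block, 74 higher and 94 lower (97 and 76 without it), and 71 were called in both fits. CFLAR turned to 0.02 with the mean of all probe sets. Of the 102 named genes, 53 were no longer called with only the 6 arrays and 30 without vincristine replicate 1. Leaving out monastrol 100 uM replicate 1, 2 or 3 lost 27, 26 and 23 calls. Leaving out vincristine 0.01 uM replicate 2 or 3 lost 14 and 7. With the mean of all probe sets 19 were no longer called and 1, CFLAR, changed sign.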
